A study of Mus musculus with 13 samples.

Results

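Cyp2b9, Cyp2b10 and Cyp2b13 are mouse liver cytochrome P450 genes of the Cyp2b subfamily, and their transcripts were followed through TAA injury of the liver. The members were all probes whose symbol in the probe annotation was one of these 3 names, which gave 4 of the 25697 probes on the array. RNA of total liver had been measured on 13 single-colour Illumina MouseRef-8 v2.0 arrays for a study of fibrosis in a mouse model of hepatotoxic injury. All 4 groups were female C57BL/6 mice with no genetic change named in the labels. They were naive mice (3 arrays) and mice given TAA for 1 week (3 arrays), 4 weeks (4 arrays) or 6 weeks (3 arrays). TAA is the usual short form of thioacetamide, a compound that liver enzymes turn into toxic products. The labels give no age, dose, route or vehicle, and they do not say whether the arrays of a group came from separate animals, so p-values measure only the spread between these samples.

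CYP2B enzymes are haem proteins of the endoplasmic reticulum that oxidise drugs, pesticides and steroids. Their genes are classical targets of the constitutive androstane receptor, CAR (gene Nr1i3), which moves to the nucleus after exposure to phenobarbital-like compounds and binds DNA together with a retinoid X receptor. In mouse liver Cyp2b10 is the member best known for induction through CAR. Cyp2b9 and Cyp2b13 are known in mouse for higher expression in females, under control of the pattern of growth hormone secretion.

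The 3 genes lie in one cluster on chromosome 7, in the order Cyp2b10, Cyp2b13, Cyp2b9, with Cyp2b pseudogenes between them. Upstream sequence of each gene is shown because Cyp2b9 and Cyp2b13 are nearly alike there while Cyp2b10 is not. The sequences are those of RefSeq on GRCm38.p6, in windows of 250 bases before the transcript start that the promoter table uses, and all 3 members were matched. The gene records of Cyp2b9 and Cyp2b13 begin 59 and 107 bases before that transcript start, and only the 191 and 143 bases before those records are printed. For Cyp2b10 both starts coincide and the whole window is printed. Capitals mark matches, on either strand, to AGGTCA (the half-site of many nuclear receptors) or to TTGCNNAA (a C/EBP-type element).
Cyp2b9, chr7:26173159-26173349, plus strand: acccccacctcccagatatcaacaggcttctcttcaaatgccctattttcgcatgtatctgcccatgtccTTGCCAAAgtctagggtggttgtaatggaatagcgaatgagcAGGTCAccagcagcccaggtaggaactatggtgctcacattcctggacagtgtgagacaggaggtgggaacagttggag
Cyp2b13, chr7:26061245-26061387, plus strand: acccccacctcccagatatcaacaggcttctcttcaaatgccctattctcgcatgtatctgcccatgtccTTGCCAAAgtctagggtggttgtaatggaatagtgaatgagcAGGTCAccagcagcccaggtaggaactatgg
Cyp2b10, chr7:25897408-25897657, plus strand: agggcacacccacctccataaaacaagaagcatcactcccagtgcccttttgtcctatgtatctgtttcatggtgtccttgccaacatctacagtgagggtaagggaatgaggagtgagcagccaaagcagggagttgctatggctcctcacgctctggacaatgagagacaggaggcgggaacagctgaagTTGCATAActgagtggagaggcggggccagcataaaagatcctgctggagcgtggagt
The 250-base windows of Cyp2b9 and Cyp2b13 were identical at 248 of 250 positions (99.2%) and differed by T48C and C104T, with Cyp2b9 named first and positions counted from 1 at the 5′ end of the window. The window of Cyp2b10 matched either of them in 182 of 260 aligned columns (70.0%). AGGTCA stood 138 bases before the transcript start of the table in Cyp2b9 and Cyp2b13, which is 79 and 31 bases before their gene records, and was not found in the window of Cyp2b10. It was present in 14.0% of 32851 promoter windows of 250 bases. Only matches to these letters within the windows were sought, so sites farther upstream and less exact sites were not examined. TTGCNNAA occurred as TTGCCAAA at 180 bases before that transcript start in Cyp2b9 and Cyp2b13 (121 and 73 bases before the gene records) and as TTGCATAA at 58 bases in Cyp2b10, and 9.56% of all windows held it. TTCNNNGAA, the STAT5 consensus, had 0 matches in the 3 windows and occurred in 7.02% of all windows. No match overlapped a match to another of these motifs. The annotation used here gives no probe sequences, so how far the probes of these similar genes cross-hybridise was not tested.

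Arrays differed in brightness, with mean intensities of 472 to 587 for naive liver, 177 to 479 (1 week), 456 to 611 (4 weeks) and 195 to 273 (6 weeks), and 8344 to 10980 probes per array passed a detection p-value of 0.01. In a way that crosses the 1-week group, 7 genes (among them Erich5, Zxda and Ifngr2) divided the arrays into 2 sets, with the 6-week arrays and 1-week arrays B and C in one set and all other arrays in the other. Neither set holds both naive and 6-week arrays, so values with the array set as a term in the model are printed beside the results. That term sets 1-week array A alone against naive and 6 weeks against 1-week arrays B and C, and it reaches 6 weeks minus naive only through the 1-week arrays. Of 10 hepatocyte markers 8 were tested, and their summed linear signal was 131719 to 148748 per naive array, 120910 to 134627 at 1 week, 115399 to 126624 at 4 weeks and 104727 to 119019 at 6 weeks. The probes of Fgb and Tat were detected on 0 arrays, and the probe of Alb was dim at a log2 level of 6.16 in naive liver. In whole liver, fewer cells of a type and less RNA per cell cannot be told apart.

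All 3 members were lower at 6 weeks of TAA than in naive liver, whereas at 1 and 4 weeks 2 of them, Cyp2b9 and Cyp2b13, were called lower. Levels are neqc-normalized log2 intensities, and a change was called at an adjusted p-value under 0.05 (limma, Benjamini-Hochberg over the 8027 genes tested). Of all genes tested 12.3% were called lower and 13.3% higher at 1 week, 12.9% and 15.2% at 4 weeks, and 16.4% and 22.4% at 6 weeks, and the median log2 changes of all genes were 0.02, 0.03 and 0.09.

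Cyp2b9, a female-predominant member, had log2 levels of 12.68, 12.40 and 12.21 on naive arrays A, B and C and of 10.07, 10.89 and 10.82 on the 1-week arrays. Its levels were 10.13, 11.23, 10.85 and 11.63 on 4-week arrays A to D and 9.92, 9.73 and 9.89 on the 6-week arrays. Every TAA array lay below every naive array, the 1-week and 4-week arrays overlapped, and all 6-week arrays lay below the lowest 1-week array by a narrow margin. How many of all genes tested have groups without overlap is not given here. Such separation, for Cyp2b9 and for the genes below, therefore does not by itself mark a gene as unusual. The group means were 12.43 ± 0.23 (SD, n = 3), 10.59 ± 0.46 (n = 3), 10.96 ± 0.64 (n = 4) and 9.85 ± 0.11 (n = 3). Cyp2b9 fell at each time, with log2 changes from naive of -1.84 ± 0.31 (SE) at 1 week, or 3.58-fold (limma adjusted p = 9.62e-04), -1.47 ± 0.29 at 4 weeks, or 2.77-fold (adjusted p = 0.00199), and -2.58 ± 0.31 at 6 weeks, or 5.99-fold (adjusted p = 4.27e-05). With the array set as a term the changes were -2.36 at 1 week (adjusted p = 0.00448) and -3.37 at 6 weeks (adjusted p = 0.0035). Its raw intensity stayed above background throughout, at 4.30 to 7.38 times the array background at 6 weeks against 50.9 to 90.2 times in naive liver.

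Cyp2b13, the other female-predominant member, had log2 levels of 12.31, 12.15 and 11.68 on the naive arrays and of 8.58, 8.36 and 10.32 on the 1-week arrays A to C. On 4-week arrays A to D it stood at 7.71, 10.44, 9.76 and 10.50, and on the 6-week arrays at 6.23, 7.25 and 5.83. The naive arrays were above all others and the 6-week arrays below all others, while the 1-week and 4-week arrays overlapped, with 4-week array A far below the other 4-week arrays. The means were 12.05 ± 0.33 (SD, n = 3), 9.09 ± 1.07 (n = 3), 9.60 ± 1.31 (n = 4) and 6.44 ± 0.73 (n = 3). Cyp2b13 fell at each time, with log2 changes of -2.96 ± 0.64 (SE) at 1 week (7.77-fold, limma adjusted p = 0.00463), -2.45 ± 0.60 at 4 weeks (5.45-fold, adjusted p = 0.00758) and -5.61 ± 0.64 at 6 weeks (48.8-fold, adjusted p = 2.68e-05). The 6-week change was the second lowest of the 8027 genes, rank 2, in this fit. Under the fit with array set they were -3.46 (adjusted p = 0.0267) at 1 week and -6.37 (adjusted p = 0.00741) at 6 weeks. Raw intensity at 6 weeks was 1.17 to 2.07 times the background, so the size of this fold depends on the background correction: the 6-week change was -4.39 in log2 raw intensities without it and -4.04 in the authors' value table.

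Cyp2b10, the member best known as a CAR target, had log2 levels of 10.08, 9.17 and 8.56 on the naive arrays, 8.66, 8.85 and 8.93 on the 1-week arrays and 7.83, 8.48, 9.22 and 9.73 on the 4-week arrays. On the 6-week arrays it stood at 5.94, 5.67 and 6.41. The first 3 groups overlapped, and all 6-week arrays lay below every other array. The means were 9.27 ± 0.77 (SD, n = 3), 8.81 ± 0.14 (n = 3), 8.82 ± 0.83 (n = 4) and 6.01 ± 0.38 (n = 3). The changes from naive were -0.46 ± 0.42 (SE) at 1 week (limma adjusted p = 0.466) and -0.45 ± 0.40 at 4 weeks (adjusted p = 0.424), neither of which passed the test. At 6 weeks Cyp2b10 fell by 3.26 ± 0.42 (9.59-fold, adjusted p = 6.20e-05), and the change with the array set as a term was -3.49 (adjusted p = 0.0176). Its raw intensity at 6 weeks was 1.17 to 1.28 times background, against 4.04 to 14.1 times in naive liver. The 6-week change was -2.05 without background correction and -1.79 in the authors' value table, and both were called. The other Cyp2b10 probe was detected on 0 of 13 arrays, at log2 levels of 4.31 to 4.76, and gave no measure of the gene.

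**Figure D1:**
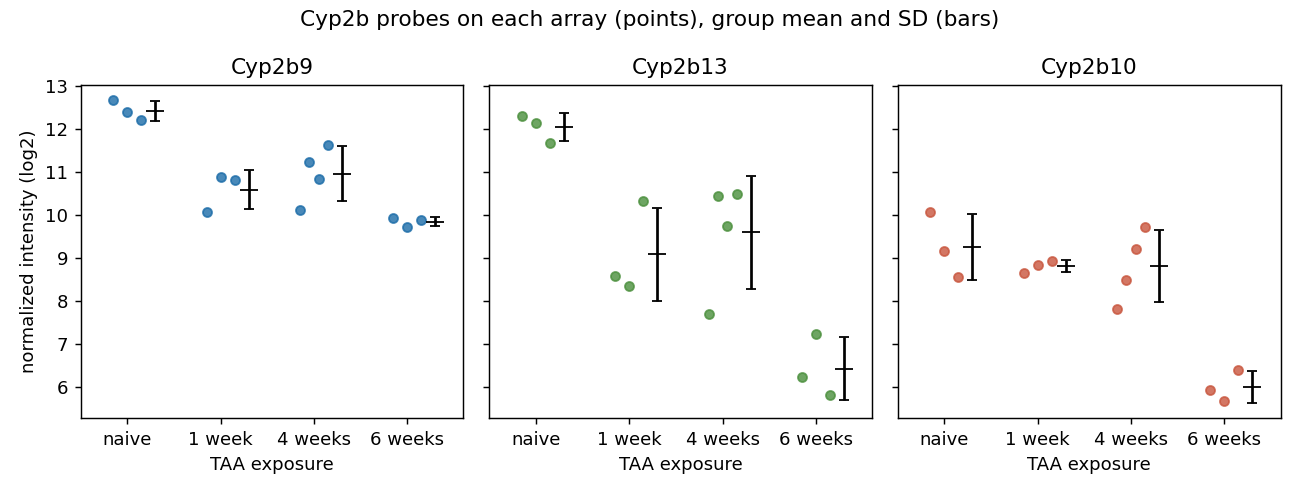
Normalized log2 intensity (y axis) of Cyp2b9, Cyp2b13 and Cyp2b10 by group (x axis: naive and 1, 4 and 6 weeks of TAA), with a point per array and a bar for the group mean with SD. The naive arrays of Cyp2b9 and Cyp2b13 lie above all TAA arrays, and the 6-week arrays of Cyp2b10 and Cyp2b13 lie below all others.

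**Figure D2:**
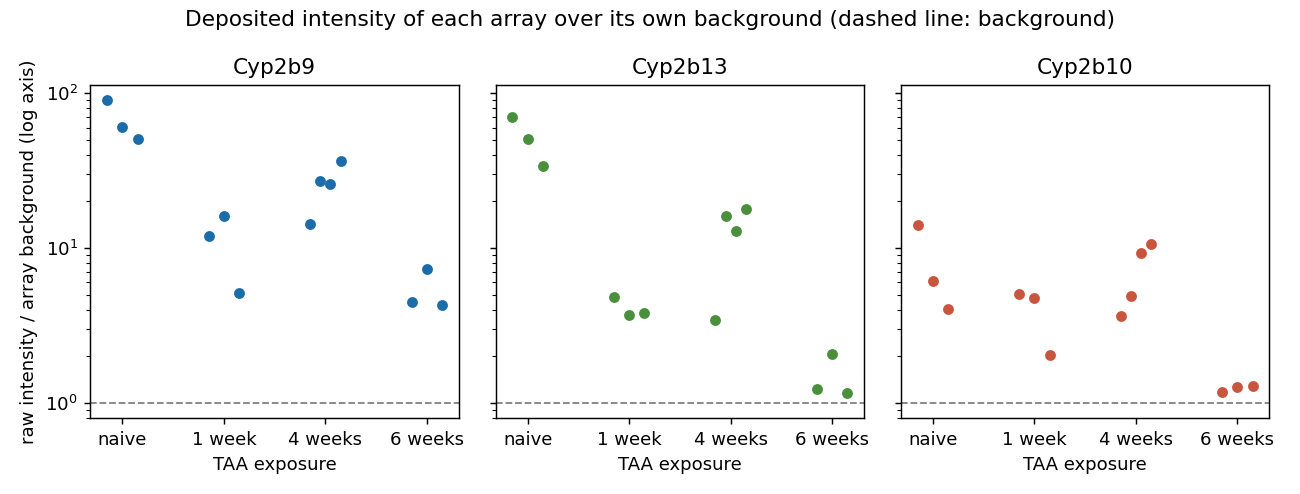
Raw intensity of each member divided by the background of the same array (y axis, log scale), by group (x axis), with a point per array and a dashed line at the background. Cyp2b10 at 6 weeks lies between 1.17 and 1.28 times background, whereas Cyp2b9 lies between 4.30 and 7.38 times.

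Between TAA groups, Cyp2b10 and Cyp2b13 were lower at 6 weeks than at 1 week, and all 3 members were lower at 6 weeks than at 4 weeks. Of all genes tested 3.9% were called lower and 5.28% higher in the first of these comparisons, and 3.09% and 2.22% in the second. The log2 change of Cyp2b10 was -2.81 ± 0.42 (SE) from 1 to 6 weeks (limma adjusted p = 0.00265) and -2.81 ± 0.40 from 4 to 6 weeks (adjusted p = 0.00178). Those of Cyp2b13 were -2.65 ± 0.64 (adjusted p = 0.0215) and -3.16 ± 0.60 (adjusted p = 0.00894). Cyp2b9 fell by 1.11 ± 0.29 from 4 to 6 weeks (adjusted p = 0.0406), and its change from 1 to 6 weeks was -0.74 ± 0.31 (adjusted p = 0.147). Between 1 and 6 weeks Cyp2b10 (-2.88, adjusted p = 0.00878) and Cyp2b13 (-2.91, adjusted p = 0.0389) were also called with the array set as a term. All 4-week and all 6-week arrays lie in different sets, and with that term the adjusted p between 4 and 6 weeks was 0.328 for Cyp2b9 and Cyp2b10 and 0.345 for Cyp2b13. From 1 to 4 weeks 0 of the 3 members were called in either direction, with changes of 0.37 ± 0.29, 0.51 ± 0.60 and 0.00 ± 0.40 for Cyp2b9, Cyp2b13 and Cyp2b10 (adjusted p = 0.446, 0.621 and 0.999), where 4.41% of all genes were called lower and 4.4% higher. The Cyp2b13 call between 1 and 6 weeks was lost without 1-week array C, 6-week array A or 6-week array C, at adjusted p-values of up to 0.0888. Its call between 4 and 6 weeks was lost without 6-week array A or C, at up to 0.0529, and the Cyp2b9 call between 4 and 6 weeks was lost in 8 of the 13 fits that left out 1 array, at up to 0.125.

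**Figure D3:**
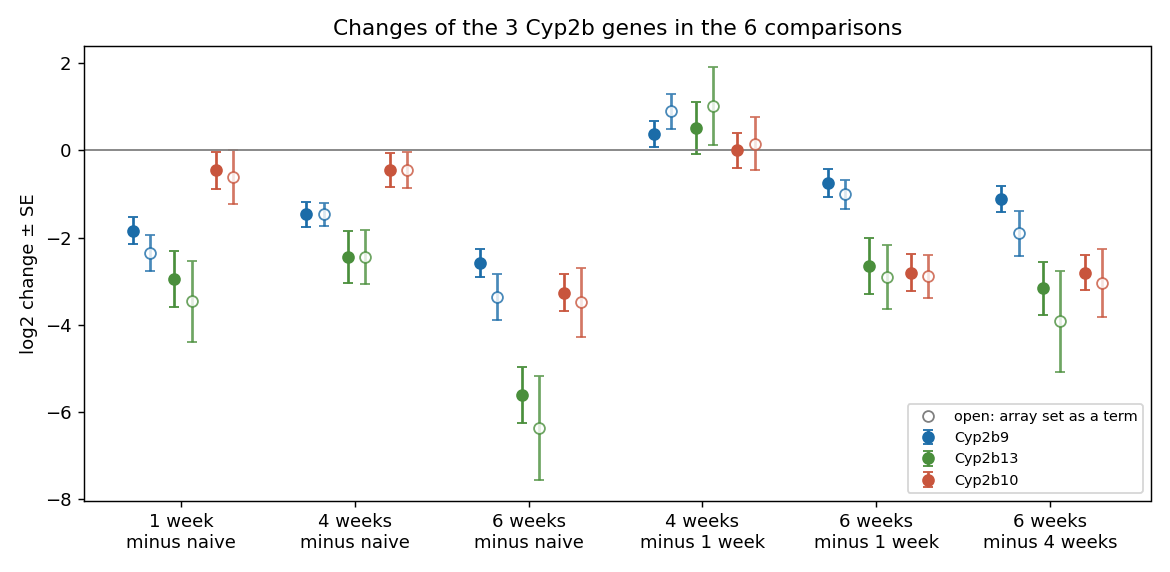
Log2 change (y axis) of Cyp2b9, Cyp2b13 and Cyp2b10 in the 6 comparisons between groups (x axis), with bars of 1 standard error; filled points are from the fit of all 13 arrays and open points from that fit with the array set as a term. The changes of Cyp2b10 at 1 and 4 weeks, -0.46 and -0.45, were not called, and the 6-week changes were called in both fits.

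The members changed by unequal amounts over the 4 groups. With the array set taken into account this held only for Cyp2b10 against Cyp2b9. Differences between members were taken within each array, where array brightness is shared, and only their shift between groups was compared because the levels of different probes are on different scales. Cyp2b10 minus Cyp2b9 was -3.16 ± 0.53 (SD, n = 3) in naive liver, -1.78 ± 0.33 (n = 3) at 1 week, -2.14 ± 0.49 (n = 4) at 4 weeks and -3.84 ± 0.32 (n = 3) at 6 weeks. This difference varied over the 4 groups (exact permutation test, p = 0.00156, adjusted over the 3 pairs p = 0.00469). Cyp2b10 minus Cyp2b13 was -2.78 ± 0.48, -0.27 ± 0.99, -0.78 ± 0.87 and -0.43 ± 1.09 in the same order (exact permutation test, adjusted p = 0.0307). Cyp2b13 minus Cyp2b9 was -0.38 ± 0.14, -1.50 ± 1.02, -1.36 ± 0.72 and -3.41 ± 0.83 (exact permutation test, adjusted p = 0.0127). By group means, Cyp2b10 relative to Cyp2b9 was highest at 1 week, and Cyp2b13 relative to Cyp2b9 was highest in naive liver and lowest at 6 weeks. This order was kept in the 19 alternatives run, of which 13 left out 1 array. The array-set and replicate-block alternatives do not alter group means, so for this order they repeat the values without them. Whether Cyp2b10 relative to Cyp2b9 was lower at 6 weeks than in naive liver depended on the processing: the 6-week mean minus the naive mean was -0.68, but 0.38 without background correction, 0.02 with median centring and 0.57 in the authors' value table. For Cyp2b13 minus Cyp2b9 the same shift was -3.03. It was -1.955 without background correction, -2.56 with median centring and -1.68 in the authors' value table. The size of this shift thus depended on the processing, and Cyp2b13 lay near background at 6 weeks. The exact adjusted p with the array set taken into account was 0.0182 for Cyp2b10 minus Cyp2b9 and 0.0686 for either other pair.

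**Figure D4:**
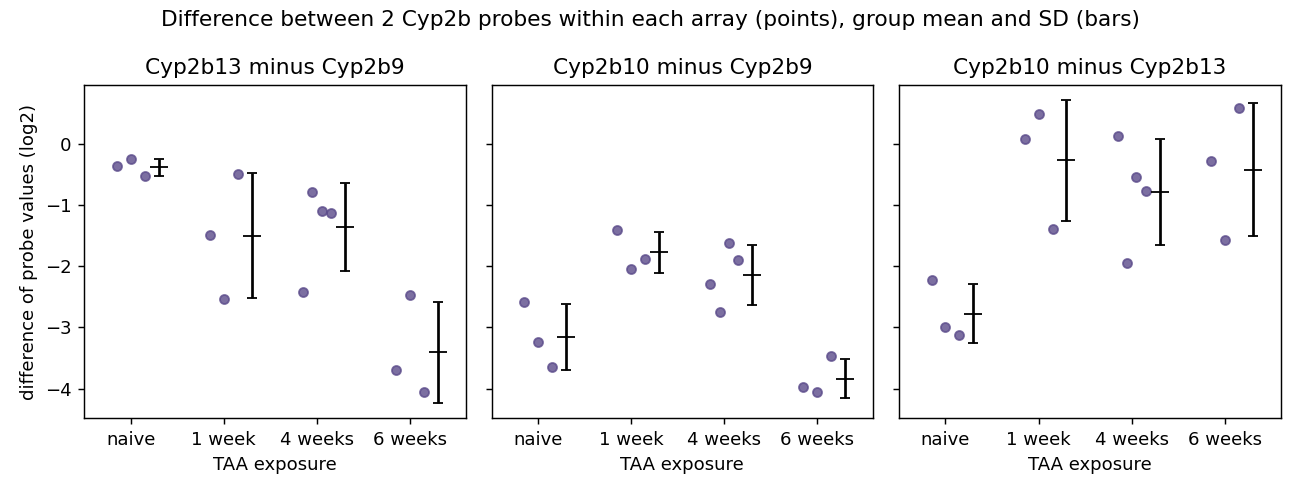
Difference of log2 levels between members within the same array (y axis) for the 3 pairs by group (x axis), with a point per array and a bar for the group mean and SD. Cyp2b13 minus Cyp2b9 runs from a mean of -0.38 in naive liver to -3.41 at 6 weeks, a shift whose size depends on the background correction.

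Over the 13 arrays, which share the group changes, the levels of Cyp2b9 and Cyp2b13 correlated with r = 0.932, those of Cyp2b10 and Cyp2b13 with r = 0.832 and those of Cyp2b9 and Cyp2b10 with r = 0.765. After removal of the group means r was 0.691, 0.470 and 0.724. The 5 tested genes most alike in level over the 13 arrays were sought for each member, with the members left out. For Cyp2b9 they were Cyp2b23 (r = 0.974), Mthfd1 (0.960), Tmem86b (0.959), Asgr2 (0.948) and Vnn3 (0.946). For Cyp2b13 they were Rbpms2 (r = 0.972), Slc35a3 (0.941), Cyb5d2 (0.934), Mthfd1 (0.933) and Acot3 (0.913). For Cyp2b10 they were Cps1 (r = 0.880), which encodes the first enzyme of the urea cycle, Aldh8a1 (0.879), Ndufs3 (0.877), Hoga1 (0.871) and Car14 (0.865). These are descriptions of 13 points that share their groups.

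The array carried 5 Cyp2b genes in all. Cyp2b23, which is no member here, had log2 levels of 10.21, 10.30 and 9.81 on the naive arrays and of 6.79, 6.85 and 7.48 at 6 weeks. Its log2 changes were -2.38 at 1 week (limma adjusted p = 8.65e-04), -1.62 at 4 weeks (adjusted p = 0.00521, and 0.059 with each array centred on its median) and -3.07 at 6 weeks (adjusted p = 6.20e-05). Cyp2b19, known in mouse as a skin enzyme, was detected on 0 arrays.

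The transcript of the receptor CAR itself was lower at every time point. Nr1i3 had log2 levels of 9.21, 9.67 and 9.60 on the naive arrays and of 7.88, 7.20 and 7.64 at 1 week. It stood at 7.58, 7.80, 7.88 and 8.02 at 4 weeks and at 6.63, 7.52 and 7.20 at 6 weeks. Every TAA array lay below every naive array. The log2 changes of Nr1i3 were -1.92 ± 0.24 (SE) at 1 week (limma adjusted p = 1.43e-04), -1.67 ± 0.22 at 4 weeks (adjusted p = 1.07e-04) and -2.38 ± 0.24 at 6 weeks (adjusted p = 8.62e-06). In the fit with the array set it was called at 1 week (-1.62, adjusted p = 0.00801) and at 6 weeks (-1.92, adjusted p = 0.0144). Between 4 and 6 weeks the change of Nr1i3 was -0.70 (limma adjusted p = 0.080), and between 1 and 6 weeks it was -0.45 (adjusted p = 0.246). Whether the changes of Nr1i3 and Cyp2b10 differed was not tested.

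Of the calls against naive of the other genes named here, 16 of 32 at 1 week and 16 of 46 at 6 weeks were kept with the array set as a term. With that term 1148 of all 8027 genes were called in either direction at 1 week and 934 at 6 weeks, against 2051 and 3118 without it. The shares of all genes called lower or higher that stand beside each list are from the fit without that term. Of 16 genes for CAR, its relative PXR and their partners, 13 were tested. At 1 week 5 were called lower and 1 higher (median -0.08), at 4 weeks 4 and 1 (median -0.12), and at 6 weeks 4 and 2 (median 0.19). The shares of all genes called lower and higher were 12.3% and 13.3%, 12.9% and 15.2%, and 16.4% and 22.4%, in the same order. The medians with the array set as a term were -0.36 at 1 week and -0.55 at 6 weeks, and 3 genes were called lower and 1 higher at either time. Rxra, a DNA-binding partner of CAR, fell at 1, 4 and 6 weeks (-0.92, -0.80 and -0.98), and the 4-week call was lost with median centring (-0.51, adjusted p = 0.370). Nr1i2, which encodes PXR, had changes of -0.33, 0.03 and -0.23, none of them called. Among coactivators, Ppargc1a fell at 1 week (-0.77) and 4 weeks (-1.11) and was detected on no 6-week array, where it was at least 1.99-fold lower (adjusted p = 1.10e-04). Ncoa3 fell by 1.01 at 1 week, where it was detected on 1 of 3 arrays (-0.59 with the other arrays at their lowest detected signal), and was at least 1.78-fold lower at 6 weeks. Egfr, the growth factor receptor through which phenobarbital is known to act on CAR, fell at 4 weeks (-1.59). Its 1-week change of -1.22 was called (adjusted p = 0.0465), but its arrays overlapped with naive, the call was kept in 11 of 26 alternatives and it was lost with the array set as a term (-1.36, adjusted p = 0.159). Its 6-week change of -0.80 was not called. Gadd45b, a coactivator of CAR in mouse, was detected on no naive array and was at least 1.29-fold higher at 1 week. Dnajc7, which holds CAR in the cytoplasm, and Ppp2ca, a phosphatase subunit in the activation of CAR, rose at 6 weeks by 0.67 and 0.56, but with median centring, which moves the median of all genes at 6 weeks to -0.65, they stood at -0.42 and -0.82.

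Of 23 other target genes of CAR or PXR 16 were tested, and they moved in both directions. At 1 week 6 rose and 3 fell, at 4 weeks 6 rose and 4 fell, and at 6 weeks 6 rose and 8 fell. The shares of all genes called higher and lower were 13.3% and 12.3%, 15.2% and 12.9%, and 22.4% and 16.4%, in the same order. The list medians were 0.47, 0.06 and -0.40, and 0.63 and 0.35 at 1 and 6 weeks with the array set as a term, so the sign at 6 weeks depended on that term. Cyp2c55, a P450 known for strong induction in mouse liver, rose by 2.05, 1.91 and 1.40 at 1, 4 and 6 weeks and was detected on 2 of 3 naive arrays. Gstm1, a glutathione transferase, rose by 1.37, 1.41 and 1.21, the last of which was -0.18 with median centring, and Abcc2, a canalicular export pump, rose by 1.05, 1.65 and 1.32. In the other direction, Cyp2c37, a P450 of arachidonic acid metabolism, fell at each time (-1.64, -2.11 and -2.39). The uptake transporter Slco1a4 fell at 4 weeks (-1.47) and 6 weeks (-2.21), with -0.16 at 1 week not called. The basolateral export pump Abcc3 fell at 1 week (-1.06) and 6 weeks (-1.26), with -0.65 at 4 weeks not called. In the fit with the array set 1 of the 16 was called higher and 4 lower at 6 weeks.

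Of 12 genes of P450 electron transfer and haem metabolism 10 were tested. Of these 3 were called higher and 0 lower at 1 week, 2 and 0 at 4 weeks, and 3 and 1 at 6 weeks, with medians of 0.19, 0.12 and 0.16, where 13.3%, 15.2% and 22.4% of all genes were called higher. In the fit with the array set 0 were called higher and 0 lower at 1 week, and 0 and 1 at 6 weeks. Alas1, the rate-limiting enzyme of haem synthesis, rose by 1.08, 0.93 and 0.89, and Blvrb, a biliverdin reductase, rose by 0.77, 1.09 and 0.97. Pgrmc1, a haem-binding partner of P450 enzymes, rose by 0.90 and 0.70 at 1 and 6 weeks. Their 6-week values were -0.53, -0.44 and -0.50 with median centring. Fech, which inserts iron into haem, fell by 1.46 at 6 weeks, where it was detected on 2 of 3 arrays.

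Of 23 female-biased liver genes other than the members, 14 had a probe on the array and 6 were tested. Among those not tested, Cyp3a41a, Cyp3a44, Cyp3a16 and Cyp2c40 were detected on 0 arrays, and Sult3a1 on 0 naive arrays. The counts therefore describe only the 6 tested genes. Among these 6, 3, 3 and 5 were called lower at 1, 4 and 6 weeks and 0 higher. Their medians were -1.25, -1.13 and -2.43, where 12.3%, 12.9% and 16.4% of all genes were called lower. Cux2, a female-specific liver repressor, fell at each time (-1.79, -2.38 and -2.45) and was detected on 1 of 3 arrays at 6 weeks (-2.14 with the others at their lowest detected signal). A1bg fell at 1 week (-2.10) and 6 weeks (-2.96), and Cyp17a1, a steroid hydroxylase, at 4 weeks (-2.04) and 6 weeks (-2.61). Acot3, a peroxisomal thioesterase, fell at each time (-1.82, -1.36 and -2.41). When the array set was a term, the 6-week median was -2.12, and 1 of the 6 was called lower at either time. Of 12 genes of growth hormone signalling 10 were tested, of which 0 rose and 4, 3 and 3 fell at 1, 4 and 6 weeks. The shares of all genes called lower were 12.3%, 12.9% and 16.4%. With the array set as a term 2 and 1 of the 10 fell at 1 and 6 weeks. Socs2, a STAT5 target that limits growth hormone signalling, fell at each time (-1.95, -1.66 and -1.72). Igfals, which encodes a carrier subunit of circulating insulin-like growth factors, also fell at each time (-1.29, -1.17 and -1.49). Ghr, the growth hormone receptor, fell at 4 weeks (-1.21) and 6 weeks (-0.72).

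Of the 8 hepatocyte markers tested, 1, 1 and 3 were called lower and 0 higher at 1, 4 and 6 weeks, with medians of 0.13, -0.21 and -0.24, where 12.3%, 12.9% and 16.4% of all genes were called lower. The 6-week falls included Serpina1c (-1.16) and Cps1 (-0.69), and 0 of the 8 were called at 1 or 6 weeks once the array set was a term. The summed signal of the 5 tested stellate cell and myofibroblast markers was 4094 to 4505 per naive array, 5448 to 6775 at 1 week, 5144 to 8709 at 4 weeks and 5779 to 7606 at 6 weeks. That of the 4 macrophage markers was 1358 to 1681 in naive liver, 1533 to 3729 at 1 week, 1671 to 2464 at 4 weeks and 1011 to 2192 at 6 weeks. Of the stellate cell list Acta2, a smooth muscle actin of myofibroblasts, rose by 2.14 and 2.25 at 4 and 6 weeks. Col1a1, a collagen chain, was detected on no naive array and was at least 2.95-fold higher at 4 weeks and at least 1.98-fold higher at 6 weeks. Dcn had a called change of 0.60 at 1 week, which was -0.38 with median centring. Of the macrophage markers Cd14 rose by 1.15, 1.15 and 1.72, Lyz2 rose by 1.00 at 4 weeks, and Clec4f, a Kupffer cell lectin, had a called change of -1.01 at 6 weeks that was 0.036 with the array set as a term. Of the endothelial markers Stab2 fell at each time (-0.53, -0.72 and -1.06), its 1-week call being kept in 11 of 26 alternatives, and Lyve1 rose by 1.13 and 0.96 at 1 and 6 weeks. The 6-week change of Pecam1 was -0.82, and 0.10 with the array set as a term. Of the bile duct markers Sox9 and Krt7 rose at 6 weeks by 1.16 and 0.79, with detection on 1 and 2 of the 3 naive arrays. The T-cell gene Cd3g had a called change of -0.92 at 6 weeks, and -0.07 with the array set as a term. It was detected on 2 of 3 naive arrays and on no 6-week array, so the size of this change is not measured. The part of cell composition in the changes of the members was not tested.

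**Figure D5:**
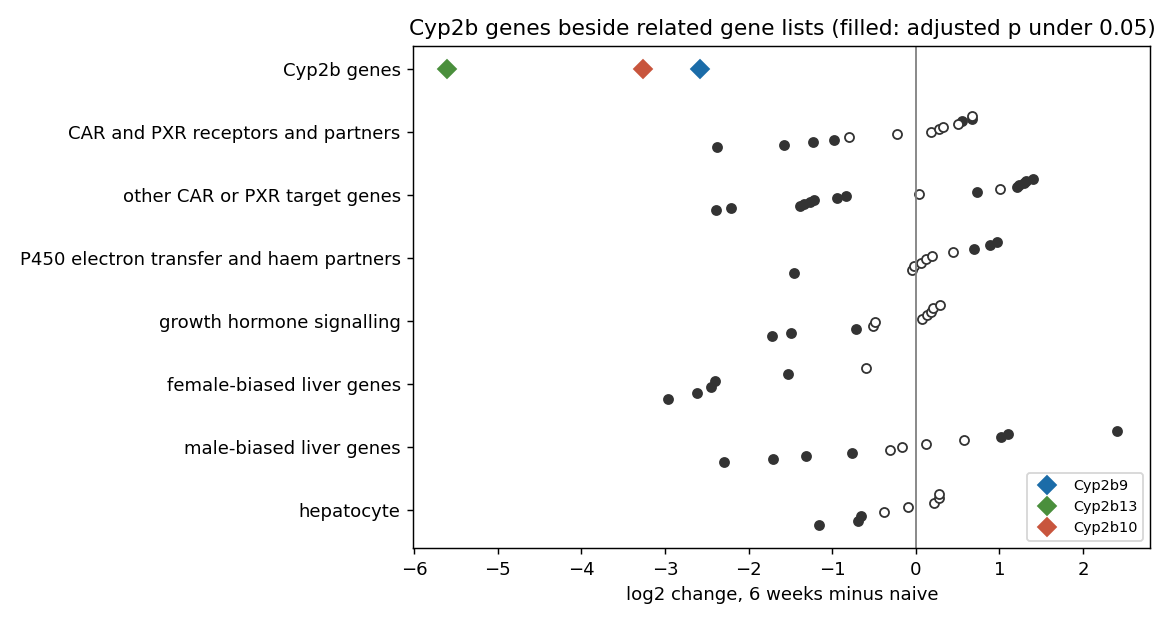
Log2 change at 6 weeks minus naive (x axis) of the 3 Cyp2b genes (diamonds) and of the tested genes of each list (points, 1 per gene, filled where the adjusted p was under 0.05). The diamonds lie at -5.61, -3.26 and -2.58, and the female-biased genes all lie below 0 with a median of -2.43.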

How the data were processed

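Total liver RNA was measured on Illumina MouseRef-8 v2.0 arrays. Per the file headers, the deposited intensity is the non-normalized signal of each probe, and the deposited detection p-value ranks it against negative controls. The submitters' processing notes name GenomeStudio without a version. The authors' deposited value table holds log2 values centred on each probe, with normalization and centring not stated. Its differences followed those of quantile-normalized log2 raw intensities (r = 0.998, slope 0.905, across probes), and its column medians ran from -0.00176 to 0.00134. It served as an alternative.

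Raw intensities were processed with neqc (limma 3.58.1, R 4.3.3, offset 16, quantile normalization). A probe was kept if detected (p under 0.01) on 3 or more arrays, which left 11212 of 25697, and the brightest probe per gene was tested, 8027 genes in all. One lmFit and eBayes model covered the 13 arrays, with 6 comparisons adjusted by Benjamini-Hochberg. Of the probes 23978 had 1 symbol, 1719 had none and 0 had several. The model was tested on simulated data. Pairs of members were compared by an exact permutation test over 1201200 assignments of arrays to groups, two-sided by construction. Where a group had no detected array, the fold is a lower bound: the mean of the brighter group against, per array, the lowest signal among detected probes or the probe's own, whichever was higher. The direction of such a call was set by which group was detected, and the gene is still counted in its list. Intensities of arrays have no counting error, and their number limits the precision.

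The members and gene lists were chosen with earlier results of these data known, and the array sets were found on these data. Named are, per list and comparison with naive, the called genes with the 2 largest rises and 2 largest falls. Also named are genes of the CAR and P450 partner lists, and the 5 genes outside the members most alike to each member. Other normalizations, filters, fits, the value table and leaving out each array were tried. Raw-table columns carry letters, and only the value table's samples have replicate numbers.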

Additional observations from a re-analysis of the deposited data

Results flagged for a closer look

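The changes from naive of some members differed between time points by the test of the difference itself (limma, adjusted over all genes). The change at 6 weeks was lower than that at 1 week by -2.81 log2 for Cyp2b10 and by -2.65 for Cyp2b13. It was lower than that at 4 weeks by -2.81 for Cyp2b10, by -3.16 for Cyp2b13 and by -1.11 for Cyp2b9. The naive mean cancels in these differences, so they repeat the comparisons between TAA groups above, with the losses of calls given there. The 4-week and 6-week arrays lie in different array sets, so time and array set cannot be told apart between them. In the 4-week group, the only one large enough to be examined for a single distant array, the largest ratio of gap to range was 0.791, for Cyp2b13 minus Cyp2b9, which did not reach Dixon's critical value for 4 arrays.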

How the results depend on the processing

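The changes from naive of all 3 members kept their direction and their side of the threshold under each alternative run. At 6 weeks they ran from -3.98 to -2.36 for Cyp2b9, from -6.54 to -4.04 for Cyp2b13 and from -3.96 to -1.79 for Cyp2b10. The limits lie in the dim 6-week arrays and 1-week array C, in small groups and in the array sets; the cause of the shifts below was not tested.

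With the array set as a term, the changes between 4 and 6 weeks were -3.03 for Cyp2b10, -3.92 for Cyp2b13 and -1.90 for Cyp2b9, none called, and the exact adjusted p was 0.0686 for Cyp2b10 minus Cyp2b13 and 0.0686 for Cyp2b13 minus Cyp2b9. The genes called with it by limma were 1148 at 1 week (against 2051), 934 at 6 weeks (against 3118), 134 for 4 weeks minus 1 week (against 707), 425 for 6 weeks minus 1 week (against 737) and 0 for 6 weeks minus 4 weeks (against 426, with 800 at an unadjusted p under 0.05). Cyp2b13 between 1 and 6 weeks was no longer called within an array set (-2.91, with 42 genes called), with array weights (-2.58), in the value table (-1.51), without background correction (-1.72), with median centring (-2.59) or without a filter (-2.65). Median centring also ended the call of Cyp2b10 between 1 and 6 weeks (-2.76, adjusted p = 0.0548), and no filter that of Cyp2b9 between 4 and 6 weeks (-1.11, adjusted p = 0.090).

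Replicate numbers did not pair the samples: same-numbered samples had r from -0.339 to 0.237, and 2 of 13 samples correlated best with their own number. With the replicate number as a block in the value table, Cyp2b10 (-1.25), Cyp2b13 (-1.70) and Cyp2b9 (-0.77) between 4 and 6 weeks and Cyp2b13 between 1 and 6 weeks (-1.51) were not called, the exact adjusted p was 0.0781 for Cyp2b10 minus Cyp2b13 and 0.0799 for Cyp2b13 minus Cyp2b9, and the genes called were 279, 402 and 102 for 4 minus 1, 6 minus 1 and 6 minus 4 weeks. The block changed no call of a member against naive.

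In the order 4 minus 1, 6 minus 1 and 6 minus 4 weeks, array weights called 211, 209 and 868 genes, and fits of only the groups compared called 373, 169 and 762, with 1099 for 1 week minus naive. Testing all probes called 1241 for 4 minus 1 and 1154 for 6 minus 4 weeks, and cyclic loess called 389 for 6 minus 1 week. Median centring called 768 and 656 at 1 and 4 weeks against naive, 5 for 6 minus 1 week and 4127 for 6 minus 4 weeks. It put the median change of all genes at -0.43 at 1 week, 0.24 at 4 weeks and -0.65 at 6 weeks. With quantile normalization these medians were 0.02, 0.03 and 0.09. Median centring also moved single genes. It reversed the 6-week values of Hnf4a (-1.09), Dnajc7 (-0.42), Ppp2ca (-0.82), Alas1 (-0.53), Urod (-1.28), Blvrb (-0.44), Pgrmc1 (-0.50), Cyb5a (-1.15), Cyb5r3 (-1.37), Gstm1 (-0.18), Gstp1 (-0.41), Cyp2d9 (-0.12) and Dcn (-0.88), and those of Blvrb (-0.14) and Dcn (-0.38) at 1 week. The array set as a term reversed the 6-week values of Clec4f (0.036) and Pecam1 (0.10).

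Leaving out 1 array at a time gave ranges of -3.06 to -2.04 for Cyp2b13 between 1 and 6 weeks, -3.80 to -2.86 for Cyp2b13 and -1.39 to -0.89 for Cyp2b9 between 4 and 6 weeks, and an exact adjusted p from 0.0166 to 0.104 for Cyp2b10 minus Cyp2b13. The genes called ran from 359 to 1055 for 4 minus 1, from 274 to 1396 for 6 minus 1 and from 106 to 654 for 6 minus 4 weeks. The filters, weights, trended spread and fits of only the groups compared do not bear on the test of pairs.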

Other observations

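The rest of the Cyp2 family on the array, a list added after the values were seen, was lower more often than higher. Of 31 other Cyp2 genes 20 were tested, and 10, 12 and 12 were called lower and 2, 2 and 3 higher at 1, 4 and 6 weeks, with medians of -0.47, -0.81 and -0.80. The shares of all genes were 12.3%, 12.9% and 16.4% called lower and 13.3%, 15.2% and 22.4% called higher. With the array set as a term 11 were called lower and 1 higher at 1 week, and 12 and 1 at 6 weeks. The fit with that term called 1148 and 934 of all 8027 genes at 1 and 6 weeks, both directions together. Cyp2d40 fell at each time, with changes of -2.16 at 1 week and -2.86 at 6 weeks and a 4.00-fold fall at 4 weeks. Cyp2g1 was called lower at each time (-1.93, -1.91 and -2.13). It was detected on 4 of 13 arrays, among them all 3 naive arrays and no 6-week array. Cyp2g1 thus passed the filter only through the naive arrays, and the sizes of its falls rest largely on undetected signal. Cyp2c50, a P450 of arachidonic acid metabolism, fell at each time (-1.59, -2.32 and -2.58). Cyp2a5, the mouse coumarin hydroxylase, rose by 1.24, 1.24 and 1.29; its near-identical relative Cyp2a4 has no probe of its own on the array.

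Male-biased liver genes moved in both directions. Of 18 listed 11 were tested, with 1, 2 and 3 called higher and 3, 4 and 4 lower at 1, 4 and 6 weeks. The shares of all genes were 13.3%, 15.2% and 22.4% called higher and 12.3%, 12.9% and 16.4% called lower. Hsd3b5 was detected on no TAA array and was at least 3.58-fold, 4.52-fold and 4.02-fold lower at 1, 4 and 6 weeks. It passed the filter only through the naive arrays, so only a fall could be called, and its falls are within the counts of genes called lower. Cyp4a12a, detected on no naive array, was at least 1.67-fold higher at 4 weeks and at least 2.85-fold higher at 6 weeks. Gstp1, a glutathione transferase, rose by 1.46, 1.80 and 1.02, the last of which was -0.41 with median centring. Cyp2d9 rose by 1.10 at 6 weeks, which was -0.12 with median centring, and the complement gene C8b fell by 1.70 at 6 weeks. Cyp7b1, an oxysterol hydroxylase, fell at each time (-1.77, -1.83 and -1.31). With the array set as a term 0 of the 11 were called at 6 weeks.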
